A study of Mus musculus with 6 samples.

Results

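Ribosome biogenesis factors are the nucleolar proteins that transcribe, modify, cut and fold ribosomal RNA and load it with ribosomal proteins. The genes described here are a list of 51 such factors, kept where the mean level reached 1 CPM (counts per 1000000 reads) over 6 libraries. All 51 met this condition, of 25654 genes with a value, and the lowest mean was 11.6 CPM, so no gene lay close to the condition. The choice of list used names and levels, not the difference between age groups, but it was made with earlier results of these data known.

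The libraries came from wild-type (WT) female C57BL/6 mice, 3 from young animals aged 6 weeks and 3 from aged animals of around 65 weeks. CD8 T cells, which kill infected and tumour cells, were isolated from spleen and activated for 2 days on bound antibodies to the T cell receptor beta chain and CD28 (3 and 1 µg/ml). They then grew for 5 more days, with interleukin 2 at 10 ng/ml throughout, so RNA was taken after 7 days. The labels call the libraries biological replicates without saying whether each was a separate mouse. The p-values therefore set the group difference against variation between these libraries, and may not extend to other mice. The design does not separate age from any difference in culture between the groups.

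Ribosome production begins in the nucleolus, where RNA polymerase I makes a long precursor. Small nucleolar ribonucleoproteins (snoRNPs) then mark its bases and sugars. A large assembly called the small subunit processome folds and cuts the precursor of the small subunit, and a separate set of factors builds the large subunit. Resting T cells make few ribosomes, and activated T cells enlarge the nucleolus and raise this machinery before and during division. MYC, with its partner MAX, is a known activator of many of these genes through the E-box, the letters CACGTG near gene starts.

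The E-box was looked for in RefSeq windows (GRCm38.p6) that run from 250 bases before to 50 bases after each annotated gene start. Windows were found for 44 of the 51 genes. The letters read the same on both strands, so each match counts once. Of the 44 genes, 10 (22.7%) held an E-box, against 12.1% of the tested genes with a window and 8.09% of all genes with one. Among genes with a window, the share was 17% of other ribosome biogenesis genes and 10.3% of cytosolic ribosomal protein genes. The 10 matches are shown because 7 of them fell within the 50 bases after the RefSeq start. Capitals mark the E-box, each run is 30 bases on the gene's strand, and a position counts from 1 at the first base of the RefSeq gene start that the window was cut around, with negative numbers before it.
Wdr43: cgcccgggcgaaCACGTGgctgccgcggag
Ltv1: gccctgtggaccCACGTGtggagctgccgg
Grwd1: aagggccggagtcgCACGTGtgaaaccgga
Utp20: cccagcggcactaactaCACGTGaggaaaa
Pno1: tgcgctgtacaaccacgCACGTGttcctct
Mybbp1a: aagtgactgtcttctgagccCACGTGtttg
Pes1: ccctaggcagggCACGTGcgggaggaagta
Utp18: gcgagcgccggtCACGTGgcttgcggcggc
Nop2: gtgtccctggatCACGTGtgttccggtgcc
Imp4: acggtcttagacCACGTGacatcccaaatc

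In GRCm38.p6 these runs lie at chr17:71616220-71616249 on the plus strand for Wdr43, chr10:13193092-13193121 on the minus strand for Ltv1 and chr7:45830740-45830769 on the minus strand for Grwd1. Those of Utp20 and Pno1 are at chr10:88826765-88826794 and chr11:17211540-17211569, both minus. Those of Mybbp1a and Pes1 are at chr11:72441347-72441376 and chr11:3963965-3963994, both plus. The remaining runs are at chr11:93885769-93885798 (Utp18, minus), chr6:125131811-125131840 (Nop2, plus) and chr1:34439696-34439725 (Imp4, plus). The E-box began at position 18 in Wdr43, 29 in Ltv1, 35 in Grwd1, 38 in Utp20, 38 in Pno1, 41 in Mybbp1a and 3 in Pes1. It began at -20 in Utp18, -60 in Nop2 and -121 in Imp4. GENCODE M21, whose bounds are given for genes below, places some starts elsewhere. Counted from the first base of the GENCODE gene, the E-box lay at 338 in Wdr43, 190 in Grwd1, 60 in Ltv1, 13 in Mybbp1a, 17 in Pno1, 28 in Utp20 and 3 in Pes1, so 4 of the 10 fell within the first 50 bases. Counted from the start of any GENCODE transcript of the gene, 6 of the 10 did, all of the 7 but Ltv1. The count of 7 therefore depends on the RefSeq starts, and the shares of other genes were computed from RefSeq starts alone.

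Of the windows of these genes, 14.6% (7 of 48, since some genes have several starts) held an E-box in the 50 bases after the start. The share was 6.90% of 116 windows of other ribosome biogenesis genes, 0 of 68 windows of cytosolic ribosomal protein genes and 1.53% of 10674 windows of tested genes. In the 50 bases before the start there were 2.08 E-boxes per 100 windows of these genes and 3.27 per 100 windows of tested genes. The first value comes from 1 E-box in 48 windows and the second from 349 in 10674, so these 2 values are not set apart. A match is a description of the letters, and binding was not measured here.

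**Figure D1:**
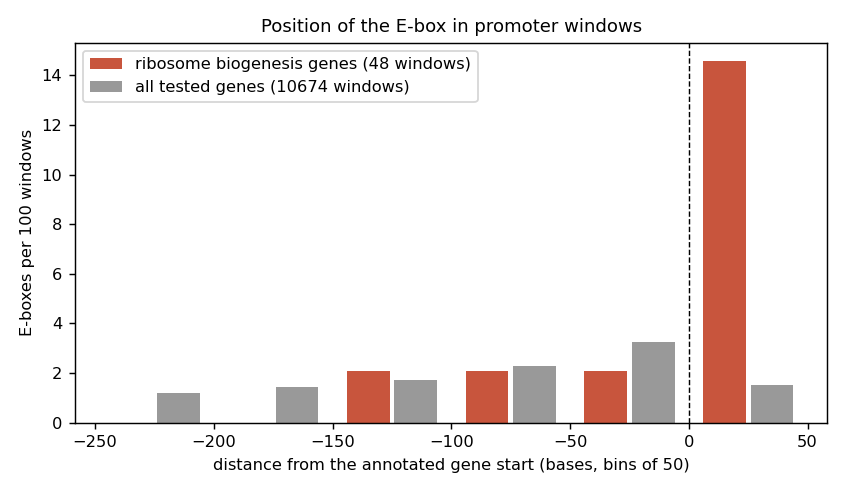
E-boxes (CACGTG) per 100 promoter windows, in bins of 50 bases by distance from the annotated gene start (dashed line), for 48 windows of ribosome biogenesis genes (red) and 10674 windows of all tested genes (grey). The red bar after the start stands at 14.6, from 7 E-boxes, and the grey bar beside it at 1.54.

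Libraries held 1952552 to 2785915 reads, and 1 read was worth 0.359 to 0.512 CPM. The libraries were made with a kit that reads the 3' end of polyadenylated transcripts, so levels of different genes can be compared without correction for their lengths. Age groups were compared with limma on log2(CPM + 1) over the 10511 genes that averaged 1 CPM or more. The call required p under 0.05 after Benjamini-Hochberg adjustment over all of these genes. All 9 markers of CD8 T cells were detected, of which 5 were called lower in aged cells and 1, Thy1, higher. Their median log2 fold change was -0.33, and 2 of the 9 had a positive change. They summed to 3754, 3864 and 3733 CPM in young and 3506, 3615 and 3315 CPM in aged libraries, without overlap. The highest level was that of Thy1 (young 968 ± 16.3, aged 1149.7 ± 74.9 CPM, SD, n = 3), and that of Cd8a was 269.9 ± 5.69 CPM for young and 303 ± 52.2 CPM for aged libraries. Cd4 averaged under 1 CPM in both groups, and the highest CD4 T cell marker was Zbtb7b (20.8 ± 3.40 and 12.7 ± 3.24 CPM), called lower. The summed B cell markers were 6.96, 2.51 and 9.99 CPM in young and 0, 1.53 and 1.41 CPM in aged libraries, where Ms4a1, Cd79a and Pax5 were at 0 throughout and Cd79b was the highest and was called lower. Myeloid markers summed to 69.1, 68.2 and 66.1 CPM in young and 86.6, 58.3 and 109 CPM in aged libraries, with Lyz2 and Adgre1 at 0. Members of that list moved both ways, with Fcer1g, most of the sum, called higher (50.1 ± 2.32 and 71.9 ± 21.1 CPM) and Itgam (3.08 ± 1.49 and 0.442 ± 0.473 CPM) and Cd68 (14.3 ± 2.93 and 8.28 ± 2.61 CPM) called lower. Neutrophil markers summed to 102, 99.4 and 82.6 CPM (young) and 85.5, 129 and 55.1 CPM (aged), nearly all Ly6g, with S100a8 and Elane at 0. Dendritic cell markers summed to 36.5, 28.0 and 24.6 CPM (young) and 15.4, 11.1 and 8.47 CPM (aged), mostly Xcr1, which was called lower, with Flt3, Siglech and Clec9a at 0. Itgax, the other marker of that list, went the other way (log2 fold change 0.905) and was not called. The NK cell list summed to 30.4, 26.6 and 21.1 CPM (young) and 33.8, 24.5 and 28.2 CPM (aged). Its highest member Klrb1c was not called (22.8 ± 3.36 and 15.7 ± 3.34 CPM), while Klre1 was 4.21-fold higher (3.12 ± 2.07 and 13.1 ± 3.05 CPM, limma adjusted p = 0.000646), without overlap. The highest sums of the plasma cell list (led by Mzb1) and of the erythroid and platelet list (led by Hbb-bt, called lower) were 8.45 and 15.8 CPM, both in Young replicate 3, with Hbb-bs, Pf4 and Ppbp at 0. The stromal and endothelial list, mostly Pecam1, summed to 42.2, 44.5 and 58.0 CPM (young) and 41.5, 33.7 and 38.6 CPM (aged), with Dcn and Cdh5 at 0. The part of such cells in the results below was not tested.

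Ribosome biogenesis genes were higher in aged cells. Of the 51 genes, 45 were called higher and 0 lower, where 16.2% of all tested genes were called higher and 12.5% lower. That excess of higher calls over all genes turned round with TMM scaling (1432 higher, 1548 lower), under which the 51 genes had 44 called higher and 0 lower. Their median change was 0.66 on the log2 scale, against 0.03 over all tested genes, and 30 of the genes were called and at least 1.5-fold higher on that scale, where 7.7% of tested genes were. In 47 genes every aged library lay above every young library, as in 22.5% of tested genes. Folds of group means in CPM among the 45 ran from 1.30-fold (Nop14) to 2.69-fold (Rrp12), with a median of 1.61-fold, and 3 genes, Polr1b, Nolc1 and Rrp12, were at least 2-fold higher. In bulk RNA, more cells in a given state and more RNA per cell cannot be told apart.

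**Figure D2:**
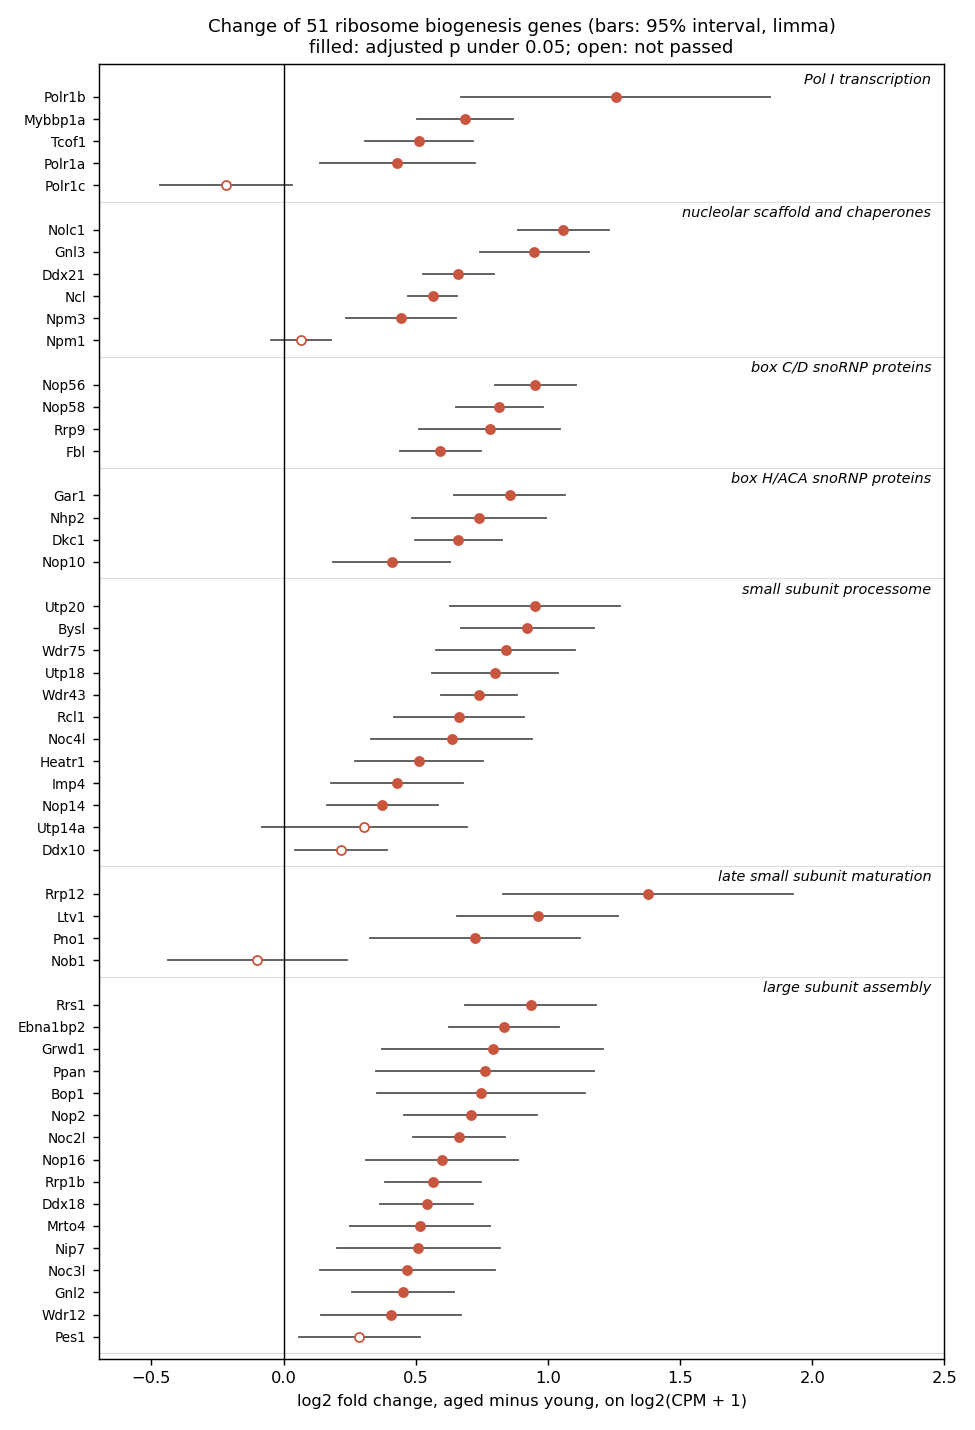
Log2 fold change (aged minus young, x axis) of each of 51 ribosome biogenesis genes, grouped by role and ordered by size within a role, with 95% intervals from limma. Filled points are the 45 genes with an adjusted p under 0.05, and the 6 open points are Polr1c, Npm1, Utp14a, Ddx10, Nob1 and Pes1.

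Summed over the 51 genes, the libraries held 9573, 9539 and 9568 CPM in Young replicates 1, 2 and 3 and 12854, 13041 and 13831 CPM in Aged replicates 1, 2 and 3. The young libraries lay within a narrow range and all aged libraries lay above it, at a ratio of means of 1.39. Ncl and Npm1 gave most of this sum, and without them the ratio was 1.57. Without these 2 genes the young sums spread more widely, at 4158, 3992 and 4282 CPM, and the aged sums were 6313, 6440 and 6816 CPM. Aged replicate 3 held the highest aged value in 26 of the genes, Aged replicate 2 in 14 and Aged replicate 1 in 11. Levels and changes were only loosely related across the genes (Pearson r = -0.22, Spearman rho = -0.14, n = 51 genes read from the same libraries, a description).

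Transcription of ribosomal DNA was represented by 5 genes, of which 4 rose. Mybbp1a, a nucleolar Myb-binding protein and the most abundant of them (ENSMUSG00000040463, chromosome 11, 72441355 to 72451768, plus strand), was at 141, 126 and 154 CPM in young and 218, 217 and 243 CPM in aged libraries. No aged library overlapped a young one, and the gene was 1.61-fold higher (log2 fold change 0.69 ± 0.09 SE, limma adjusted p = 7.39e-06). Polr1b, which encodes the core subunit next in size to the catalytic one, was at 5.22, 4.31 and 10.8 CPM and 16.9, 16.9 and 15.5 CPM. This was 2.43-fold higher (log2 fold change 1.26 ± 0.28 SE, limma adjusted p = 0.00202), from 12, 12 and 28 reads in young and 33, 44 and 33 reads in aged libraries, so the size is imprecise. Young replicate 3 stood above the other young libraries. The end of Polr1b is near-identical to a stretch of Plekha5, which leaves its value uncertain.

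Polr1a, the catalytic subunit of RNA polymerase I, was at 29.1, 32.7 and 28.8 CPM in young and 44.0, 36.4 and 42.8 CPM in aged libraries, 1.36-fold higher (limma adjusted p = 0.0269). Tcof1, which encodes treacle, a helper of polymerase I in the nucleolus, was 1.42-fold higher, at 144 ± 22.6 and 205 ± 6.14 CPM (SD, n = 3). Polr1c, a subunit that polymerases I and III share, did not follow. Its values were 62.2, 68.6 and 56.9 CPM in young and 54.8, 47.9 and 58.4 CPM in aged libraries, and the groups overlapped (log2 fold change -0.22, 95% interval -0.47 to 0.03, limma adjusted p = 0.193). That interval leaves out any rise above 0.03 on the log2 scale.

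Of 11 tested subunits and initiation factors outside the 51, 3 were called higher and 0 lower, and the median of all 11 was 0.13 on the log2 scale. Among all tested genes, 16.2% were called higher. The 3 were Cd3eap, a polymerase I subunit gene (49.3 ± 6.13 and 75.5 ± 10.8 CPM), Ubtf, the factor that coats active ribosomal DNA (92.4 ± 10.1 and 123 ± 12.0 CPM), and Rrn3, which brings the polymerase to the promoter (37.8 ± 2.80 and 50.7 ± 2.61 CPM). Polr1d, the partner of Polr1c in both polymerases, stood at 311 ± 24.8 and 282 ± 19.2 CPM and had no call (log2 fold change -0.14, limma adjusted p = 0.18).

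Nucleolar scaffold and chaperone genes included the most abundant of all 51. Ncl, which encodes nucleolin, a major RNA-binding protein of the nucleolus (ENSMUSG00000026234, chromosome 1, 86344719 to 86359400, minus strand), was at 2462, 2397 and 2436 CPM in young and 3522, 3627 and 3634 CPM in aged libraries. The aged libraries were all above the young ones, and the gene was 1.48-fold higher (log2 fold change 0.56 ± 0.04 SE, limma adjusted p = 2.84e-08). Npm1 encodes nucleophosmin, the abundant chaperone of the outer nucleolus (ENSMUSG00000057113, chromosome 11, 33152287 to 33163206, minus strand), and stood at 2953, 3150.1 and 2850.0 CPM in young and 3019, 2974 and 3381 CPM in aged libraries. The groups overlapped, and the change was 0.07 on the log2 scale (95% interval -0.05 to 0.18, limma adjusted p = 0.414). The ratio of Ncl to Npm1 transcript ends was 0.834, 0.761 and 0.855 in young and 1.17, 1.22 and 1.07 in aged libraries, a comparison chosen after the values were seen. Transcripts of 5 other annotated genes end in near-identical sequence, and how shared reads were counted is not given in the sources used here.

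Nolc1, a chaperone of snoRNPs also called Nopp140, had the largest change of its group. It was at 102, 98.7 and 104 CPM in young and 198, 217 and 224 CPM in aged libraries, 2.10-fold higher (log2 fold change 1.06 ± 0.08 SE, limma adjusted p = 2.41e-08), with a narrow spread in both groups. Gnl3, the GTPase nucleostemin of dividing and stem cells, was 1.94-fold higher, at 65.7 ± 6.79 and 127 ± 1.47 CPM. Ddx21, an RNA helicase, was 1.58-fold higher, at 473 ± 37.6 and 747 ± 20.7 CPM. Npm3, a smaller relative of nucleophosmin, stood at 145 ± 15.4 and 199 ± 28.4 CPM, 1.37-fold higher in aged cells (limma adjusted p = 0.0022). The difference between the changes of Npm3 and Npm1 was not tested.

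**Figure D3:**
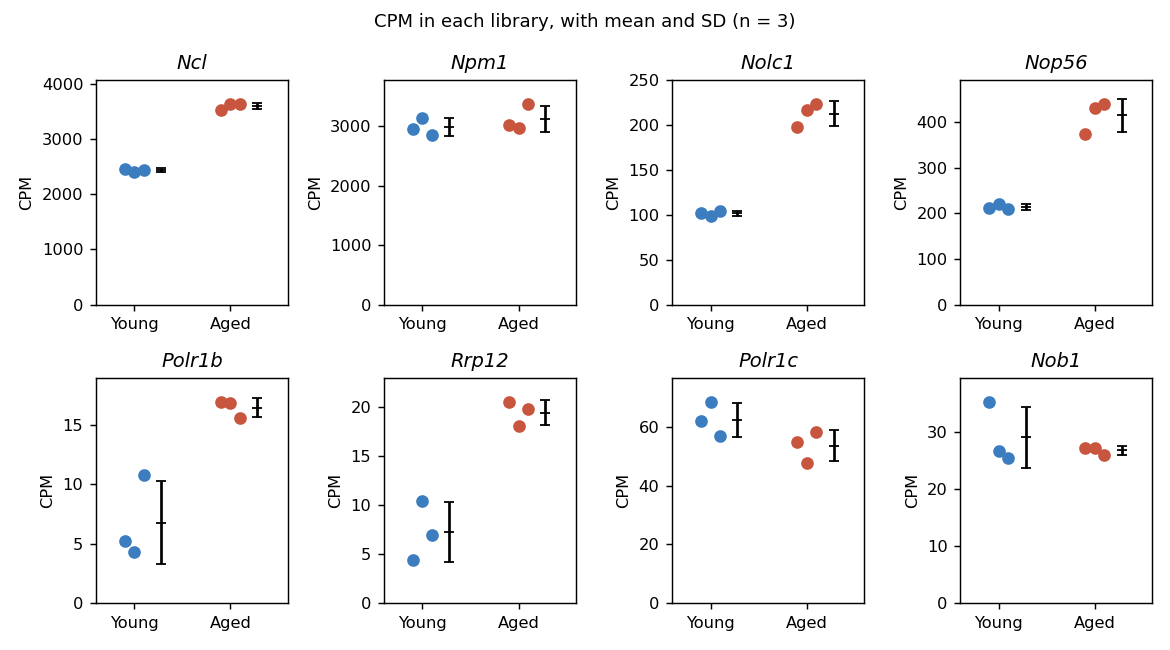
CPM of 8 genes in each young (blue) and aged (red) library, with the mean and SD (n = 3) in black and each axis starting at 0. Ncl, Nolc1, Nop56, Polr1b and Rrp12 have no overlap between groups, while Npm1, Polr1c and Nob1 overlap.

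Box C/D snoRNPs place methyl groups on ribosomal RNA, and all 4 of their protein genes rose. Nop58 and Nop56 form the core that holds the guide RNA. Nop58 was at 255, 229 and 218 CPM in young and 375, 412 and 452 CPM in aged libraries, 1.77-fold higher (limma adjusted p = 3.34e-07). Nop56 was at 212, 220.4 and 209 CPM and 374, 431 and 441 CPM, 1.94-fold higher (log2 fold change 0.95 ± 0.07 SE, limma adjusted p = 2.37e-08). These partners lay at nearly the same level. The Nop58 to Nop56 ratio was 1.203, 1.04 and 1.05 in young and 1.00, 0.956 and 1.03 in aged libraries. Fbl, which encodes the methyltransferase fibrillarin, had the smallest change of the group, at 220.0, 211 and 239 CPM and 348, 315 and 349.7 CPM, 1.51-fold higher (limma adjusted p = 5.8e-06). Rrp9, specific to the U3 particle that starts precursor cleavage, was 1.73-fold higher, at 34.9 ± 4.52 and 60.3 ± 1.77 CPM. Snu13, a further core protein outside the 51, was 1.75-fold higher, at 148 ± 4.66 and 259 ± 9.64 CPM.

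Box H/ACA snoRNPs turn uridine into pseudouridine, and all 4 protein genes rose here too. Dkc1, the pseudouridine synthase dyskerin, was the most abundant, at 255, 243 and 267 CPM in young and 379, 378 and 459 CPM in aged libraries, 1.59-fold higher (limma adjusted p = 3.44e-06). Gar1 changed most, at 63.5, 61.7 and 56.9 CPM and 103, 118 and 110.1 CPM, 1.82-fold higher (limma adjusted p = 3.12e-06). Nop10 changed least, at 83.9, 82.6 and 108 CPM and 114, 122 and 128 CPM, 1.32-fold higher (limma adjusted p = 0.00662), with Young replicate 3 close to the aged values. Nhp2 was 1.68-fold higher, at 46.5 ± 5.30 and 78.2 ± 7.40 CPM. Of 9 further snoRNP proteins and assembly factors, 4 were called higher and 0 lower. Besides Snu13 they included Ruvbl1, an ATPase of the assembly complex, 1.71-fold higher at 52.7 ± 5.05 and 90.2 ± 3.35 CPM.

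The small subunit processome was represented by 12 genes, of which 10 rose and 2 did not pass. Wdr43, the most abundant of the group, was at 202, 222 and 213 CPM in young and 359, 365 and 341 CPM in aged libraries, 1.67-fold higher (log2 fold change 0.74 ± 0.07 SE, limma adjusted p = 2.24e-07). Its E-box, shown above, lies at position 18. Utp20, a very large scaffold protein, changed most, at 23.9, 17.9 and 23.4 CPM and 44.0, 40.3 and 43.8 CPM, 1.96-fold higher (limma adjusted p = 0.00011). Bysl, the bystin gene, followed at 45.6 ± 6.76 and 86.7 ± 5.40 CPM, 1.90-fold higher. Wdr75 and Utp18, scaffold proteins, were 1.82-fold and 1.75-fold higher, from 32.1 ± 1.78 to 58.2 ± 4.41 CPM and from 45.9 ± 4.93 to 80.4 ± 3.20 CPM.

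Rcl1, an RNA cyclase-like protein, and Noc4l, the partner of Nop14, were 1.595-fold and 1.58-fold higher, at 52.0 ± 5.56 and 83.0 ± 8.81 CPM and at 25.9 ± 1.49 and 41.0 ± 4.63 CPM. Heatr1, a scaffold that also serves ribosomal DNA transcription, was 1.44-fold higher, at 44.2 ± 0.993 and 63.6 ± 4.66 CPM. Nop14 itself moved less, at 99.6, 85.8 and 83.8 CPM in young and 107, 116 and 127 CPM in aged libraries, 1.30-fold higher (limma adjusted p = 0.00764). Imp4, a protein bound to the U3 RNA, was at 58.3, 50.3 and 53.4 CPM and 63.5, 74.0 and 82.4 CPM, 1.36-fold higher (limma adjusted p = 0.00988).

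Ddx10 and Utp14a were not called. Ddx10, a helicase gene, was at 167, 178 and 179 CPM in young and 189, 193 and 228 CPM in aged libraries. The groups did not overlap, but the change was small (log2 fold change 0.22, 95% interval 0.04 to 0.39, limma adjusted p = 0.0599). Utp14a was at 30.4, 34.5 and 35.7 CPM and 45.6, 28.4 and 55.5 CPM. Aged replicate 2 lay below all young libraries and the other aged ones above them (log2 fold change 0.31, 95% interval -0.08 to 0.69, limma adjusted p = 0.24). Without Aged replicate 2 the log2 fold change of Utp14a was 0.57 and it was called (limma adjusted p = 0.00857).

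Among 41 further small subunit factors tested, 26 were called higher and 0 lower, and the median log2 fold change was 0.44. Nol11, a processome protein, was 1.69-fold higher, at 61.8 ± 6.47 and 105 ± 4.83 CPM.

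Late maturation of the small subunit takes place on its way to and in the cytoplasm, and 3 of 4 genes of it rose. Ltv1, an assembly factor that leaves the particle in the cytoplasm, was at 27.0, 35.5 and 24.2 CPM in young and 58.4, 55.6 and 55.5 CPM in aged libraries, 1.96-fold higher (limma adjusted p = 5.34e-05). Rrp12, which takes part in export of the particles, had the largest fold of all 51, at 4.35, 10.4 and 6.92 CPM and 20.5, 18.02 and 19.8 CPM, 2.69-fold higher (log2 fold change 1.38 ± 0.26 SE, limma adjusted p = 0.0005). It rests on 10, 29 and 18 reads in the young and 40, 47 and 42 reads in the aged libraries, so the size is imprecise. Pno1, a partner of Nob1, was at 18.3, 24.0 and 28.4 CPM and 29.7, 49.8 and 40.003 CPM, 1.69-fold higher (limma adjusted p = 0.007).

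Nob1, the nuclease that makes the last cut of the small subunit's RNA, was not called. It was at 35.2, 26.6 and 25.4 CPM in young and 27.1, 27.2 and 25.9 CPM in aged libraries, where all but Young replicate 1 lay close together (log2 fold change -0.10, 95% interval -0.44 to 0.24, limma adjusted p = 0.7). Without Young replicate 1 the sign turned, to 0.042 (limma adjusted p = 0.9).

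The large subunit group was the widest, with 16 genes, of which 15 rose. In all 16 the aged libraries lay above the young ones. Ddx18, a helicase and the most abundant, was at 136, 135 and 154 CPM in young and 189, 211 and 219 CPM in aged libraries, 1.46-fold higher (limma adjusted p = 7.3e-05). Rrs1, which helps bring the smallest ribosomal RNA into the particle, changed most, at 51.3, 48.8 and 45.0 CPM and 79.4, 106 and 96.5 CPM, 1.94-fold higher (log2 fold change 0.94 ± 0.12 SE, limma adjusted p = 7.52e-06). Ebna1bp2 and Noc2l were 1.79-fold and 1.59-fold higher, at 76.9 ± 9.15 and 137 ± 7.57 CPM and at 129 ± 11.3 and 204 ± 4.22 CPM.

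Pes1, Bop1 and Wdr12 encode the PeBoW complex, which is needed to process the large subunit's RNA, and their changes had different sizes. Pes1 was at 54.3, 56.0 and 61.5 CPM in young and 65.6, 73.6 and 71.1 CPM in aged libraries and was not called (log2 fold change 0.29, 95% interval 0.06 to 0.51, limma adjusted p = 0.0555), though its groups did not overlap. Bop1 was at 24.3, 14.0 and 21.1 CPM and 33.8, 35.7 and 30.1 CPM, 1.67-fold higher (limma adjusted p = 0.00526). Wdr12 was at 42.2, 50.6 and 54.6 CPM and 67.6, 70.9 and 57.4 CPM, 1.33-fold higher (limma adjusted p = 0.0206). Whether the changes of the 3 differ from each other was not tested.

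Nop2, which methylates the large subunit's RNA, and Grwd1, a chaperone of a ribosomal protein, were 1.64-fold and 1.76-fold higher, at 44.3 ± 5.45 and 72.7 ± 4.08 CPM and at 14.4 ± 3.33 and 25.4 ± 2.90 CPM. Ppan was at 12.2, 12.2 and 14.2 CPM in young and 20.0, 20.7 and 27.3 CPM in aged libraries, 1.76-fold higher (limma adjusted p = 0.00626). Nip7 was at 26.5, 28.0 and 28.8 CPM and 33.8, 42.2 and 44.7 CPM, 1.45-fold higher (limma adjusted p = 0.0131). Noc3l was at 22.6, 23.0 and 20.4 CPM and 27.1, 33.0 and 32.5 CPM, 1.40-fold higher (limma adjusted p = 0.0329), the weakest call of the 45. Gnl2, a nucleolar GTPase, was 1.37-fold higher, at 83.7 ± 0.956 and 115 ± 8.01 CPM, and Mrto4, which holds the place of a stalk protein, 1.43-fold higher, at 41.0 ± 5.34 and 58.6 ± 2.42 CPM. Rrp1b was 1.48-fold higher, at 89.8 ± 4.41 and 133 ± 1.66 CPM, and Nop16 1.52-fold higher, at 37.1 ± 6.17 and 56.2 ± 3.34 CPM.

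Of 44 further large subunit factors tested, 24 were called higher and 2 lower, and the median log2 fold change was 0.37. Among those with the smallest p were Ddx27, a helicase (101 ± 4.60 and 170.3 ± 5.53 CPM), Ftsj3, an RNA methyltransferase (98.0 ± 3.93 and 172 ± 17.4 CPM), Rsl1d1 (218 ± 6.02 and 316 ± 17.7 CPM) and Mdn1, the giant ATPase that remodels the particle (52.1 ± 5.11 and 93.5 ± 9.02 CPM). The lower genes were Nop53 (437 ± 18.6 and 352 ± 7.86 CPM, limma adjusted p = 0.000859) and Zfp622, a late cytoplasmic factor (100.02 ± 3.84 and 78.0 ± 2.27 CPM, limma adjusted p = 0.00722). In both of them the aged libraries lay below the young ones. The RNA exosome, which trims precursor ends, had 10 of 14 tested genes higher and 0 lower, among them the helicase Mtrex (97.8 ± 14.4 and 143 ± 14.6 CPM). Exosc6 had the largest log2 fold change of the further pathway genes, 2.13 (6.19 ± 4.90 and 25.7 ± 7.99 CPM). It had as few as 4 reads in a library, so this size is imprecise.

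**Figure D4:**
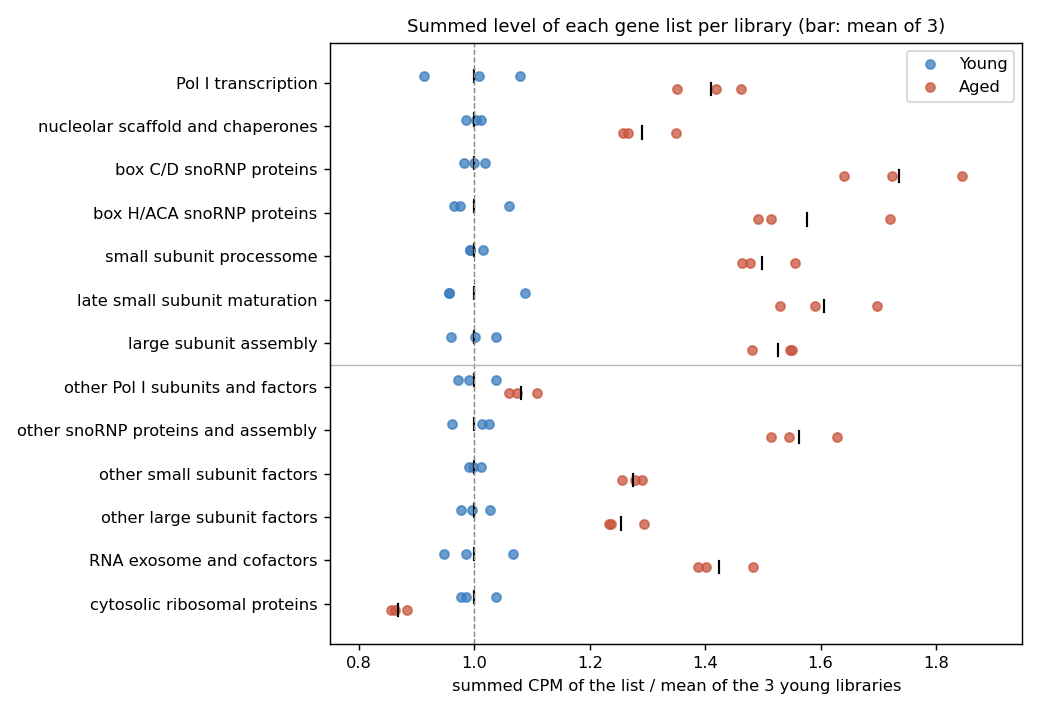
Summed CPM of each gene list in each library, divided by the mean of the 3 young libraries (x axis), with young libraries in blue, aged in red and a black bar at each mean. The 7 role groups of the 51 genes stand above the line and further lists below it. The C/D snoRNP group has the highest aged mean, at 1.74, and the cytosolic ribosomal proteins lie at 0.867.

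Over all 119 tested pathway genes outside the 51, 67 were called higher and 2 lower, where 16.2% and 12.5% of all tested genes were. The median log2 fold change was 0.40, and 0.66 in the 51. Taking the roles in turn, the summed level of the C/D group was 1.74 times the young mean in aged cells. The late small subunit, H/ACA and large subunit groups stood at 1.61, 1.58 and 1.53 times, and the processome at 1.499 times. The polymerase I group stood at 1.41 times and the scaffold group, which Npm1 weighs on, at 1.29 times. In each of the 7 role groups the summed values of the aged libraries lay above those of the young libraries.

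**Figure D5:**
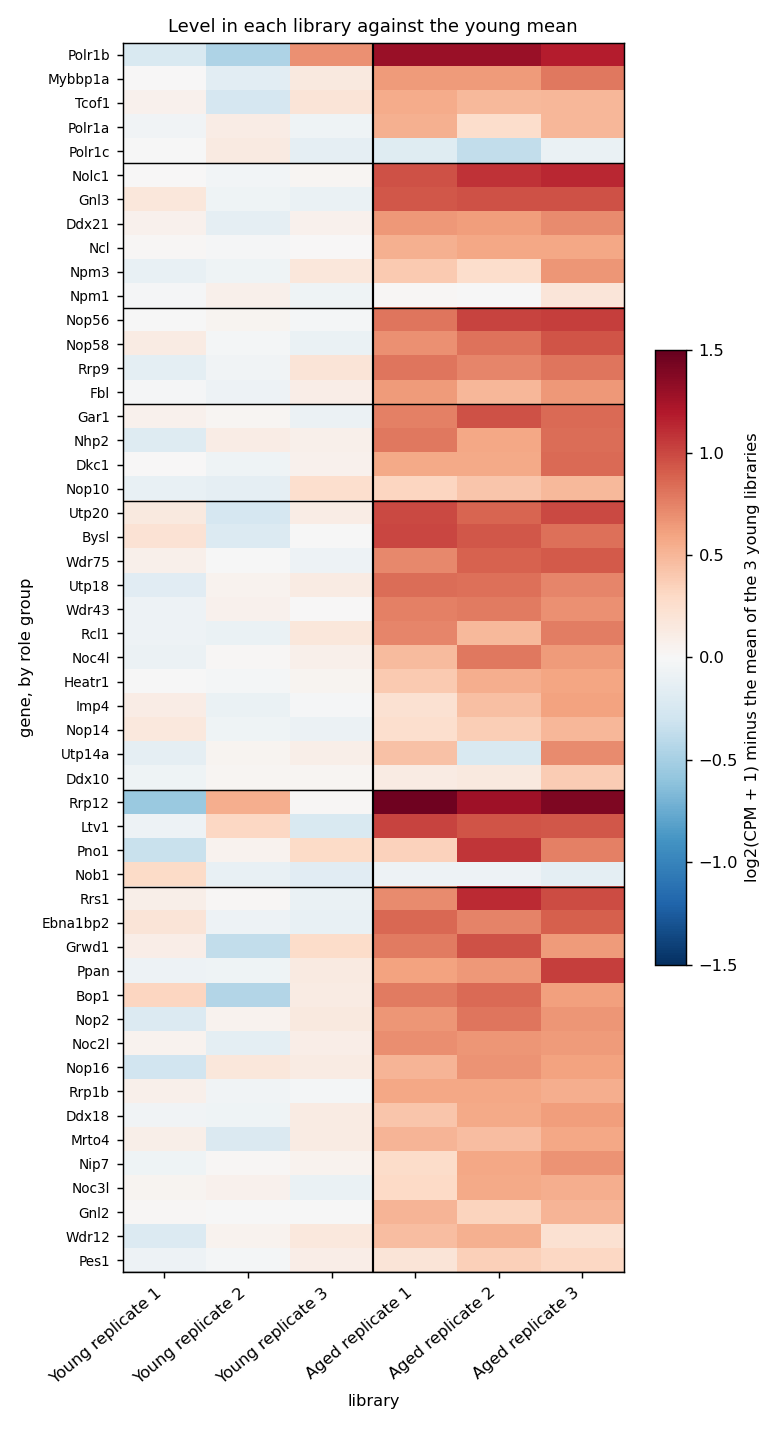
Level of each of the 51 genes (rows, by role group in the order of the fold change plot) in each library (columns), as log2(CPM + 1) minus the mean of the 3 young libraries, red above and blue below. The aged columns are red in nearly all rows, with Polr1c and Nob1 as the exceptions with a mean below the young one and Npm1 near white.

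Messenger RNAs of the ribosomal proteins that this machinery assembles were mostly lower. Of 79 genes of cytosolic ribosomal proteins, 59 were called lower, and the median log2 fold change was -0.22. Their summed level was 182464, 191992 and 181019 CPM in young and 163414, 158405 and 159680.0 CPM in aged libraries, with no overlap. Ribosomal protein genes have many near-identical copies, and how shared reads were counted is not given in the sources used here. Since CPM values are shares of a fixed total, TMM scaling was also tried, with which the median of the 51 genes was 0.61 and 44 were called.

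Division genes were higher in aged cells as well. All 20 of a list with Mki67, Cdk1 and the Mcm genes were called higher. Their median log2 fold change was 1.01 and summed levels of 2819.7, 2425 and 3139 CPM in young and 4944, 4908 and 4852 CPM in aged libraries. The part of the share of dividing cells in the change of the 51 genes was not tested. Mitochondrial transcripts held 2.89 to 3.31% of reads in young and 2.496 to 2.67% in aged libraries, and their part was not tested either.

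Among 16 growth regulators, 4 were called higher and 4 lower. Myc was at 21.3, 23.0 and 33.0 CPM in young and 30.7, 43.7 and 44.2 CPM in aged libraries, called higher (log2 fold change 0.61, limma adjusted p = 0.0161) with overlapping groups. Mycn, its relative, was at 18.7, 23.7 and 26.9 CPM and 40.5, 51.8 and 54.6 CPM, 2.12-fold higher and without overlap (limma adjusted p = 6.73e-05). The MAX-binding repressors moved both ways. Mxd4 was 3.30-fold lower, at 157 ± 22.8 and 47.5 ± 9.18 CPM, Mxi1 1.70-fold lower, at 128 ± 14.8 and 75.0 ± 9.46 CPM, and Mxd1 1.44-fold lower, at 51.9 ± 3.78 and 36.1 ± 9.86 CPM, while Mxd3 was 1.68-fold higher, at 35.2 ± 11.1 and 59.0 ± 15.7 CPM, with overlapping groups. Max itself stood at 92.1 ± 6.84 and 93.0 ± 1.14 CPM, without a call. Mdm2, the p53 ligase, was 1.55-fold lower, at 122 ± 5.41 and 79.1 ± 5.04 CPM, and Rps6kb1, the S6 kinase gene downstream of mTOR, 1.28-fold higher, at 75.1 ± 12.2 and 95.9 ± 5.19 CPM.

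The 10 genes with one had a median log2 fold change of 0.73 (0.29 to 0.96), and 9 were called. The 34 without one had a median of 0.62 (-0.22 to 1.26), and 30 were called. The difference between these medians was not tested. Pes1, whose E-box lies at position 3, is the gene with a match that was not called. In the same windows CACGCG (or its reverse, CGCGTG) was in 31.8% of these genes and 20.9% of tested genes, and the ETS-type letters CCGGAAG (either strand) in 34.1% and 22.6%. Neither was particular to the 51 genes. CACGCG was in 32% of other ribosome biogenesis genes and 17.2% of cytosolic ribosomal protein genes, and the ETS-type letters in 47% and 41.4%. Overlapping matches were allowed.

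Some of the genes host small nucleolar RNA genes within their introns or exons. By GENCODE M21 (GRCm38), 7 of the 51 genes (13.7%) had at least 1 annotated snoRNA gene within their bounds on the same strand, against 1.75% of tested genes. They were Nop56 with 5, Nop58 with 4, Ncl, Gnl3 and Wdr43 with 3 each, Ppan with 2 and Dkc1 with 1. All 7 were called higher in aged cells, where 45 of all 51 genes were, so these calls do not set the 7 apart. SnoRNAs lack a poly(A) tail and were not measured by this kit.

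Most calls held under other settings. Of the 45 genes, 36 were called in all 17 alternatives of scaling, filter, pseudocount, test, block or left-out library. Noc3l lost its call in 11 of them, with RLE, TMM and upper-quartile scaling, edgeR's quasi-likelihood test, DESeq2 and limma-voom among these. Its log2 fold change was 0.49 without Young replicate 1, 0.50 without Young replicate 2, 0.42 without Young replicate 3, 0.42 without Aged replicate 2 and 0.43 without Aged replicate 3, and it was not called in any of these.

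Polr1a lost its call in 7 alternatives, with edgeR's quasi-likelihood test (adjusted p = 0.057), DESeq2 and limma-voom. It was also lost without Young replicate 1 (0.41 on the log2 scale), Young replicate 3 (0.40), Aged replicate 1 (0.38) or Aged replicate 3 (0.40). Wdr12 lost it with DESeq2 and without Young replicate 1 (0.30), Aged replicate 1 (0.38) or Aged replicate 2 (0.35). Nip7 lost it with DESeq2 and without Young replicate 1 (0.48) or Aged replicate 3 (0.43), Imp4 with DESeq2 and without Aged replicate 3 (0.34), and Pno1 without Young replicate 1 (0.56). Nop10, Nop14 and Ppan lost it with DESeq2 alone, at adjusted p = 0.0511, 0.063 and 0.0529. Among the genes not called, Pes1 was called without Young replicate 3 (0.34) and under a level filter of 5 CPM, and Ddx10 without Aged replicate 1 (0.26) and with the replicate number as a block.

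The last exons of 9 of the genes overlap an exon of a gene on the other strand, Mybbp1a, Nop56, Dkc1, Nhp2, Imp4, Bysl, Bop1, Noc2l and Gnl2. Whether counting used strand is not given in the sources used here, so their values are uncertain to that extent. The last 300 bases of 7 genes are near-identical to part of another gene's transcript, those of Polr1b, Npm1, Fbl, Nop56, Wdr12, Ddx18 and Mrto4. The copies of Npm1, Fbl, Nop56, Ddx18 and Mrto4 have no row in the files used here, so a shift of reads between gene and copy could not be seen.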

How the data were processed

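The authors deposited 1 file per library with CPM for each of 25655 Ensembl identifiers. The deposited CPM values sum to 1000000, and 100% are whole multiples of the smallest value within 0.001 reads, so whole reads were recovered for the count tests. One identifier has a blank value and was left out, and symbols were found for 25599 identifiers. The build was GRCm38 (mm10), per the submitters' processing notes, and the libraries were QuantSeq 3' libraries, per the labels' protocols. For the aligner, counting program and use of strand, nothing is given in the sources. The file of Aged replicate 2 heads its column as replicate 3 and was taken as replicate 2, following the record of files. It holds other values than the file of Aged replicate 3.

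The test was limma 3.58.1 (R 4.3.3) with an intensity trend on log2(CPM + 1), two-sided, on every gene averaging 1 CPM or more, with age as the sole term. The code was tested on simulated data. On recovered reads, edgeR 4.0.16, DESeq2 1.42.0 and limma-voom were alternatives, and edgeR called 2998 genes. The fold scale understates changes of low genes, and folds without "log2" are ratios of mean CPM. Read counts carry no molecular identifiers, so they count reads and not molecules. The SE and intervals of limma rest on variation between libraries, not on read counts alone. Between replicates of a group the chi-square per degree of freedom was 1.72 to 2.9, above counting noise.

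The genes, role groups and further lists were chosen with earlier results of these data known. Values in every library are given for the most abundant, most changed and least changed gene of each role group and for genes whose call was missing or changed with another tool. Further pathway genes were taken by the smallest p (6 per direction, of which 2 were called lower), and regulators as Myc and those called. Any other gene was named as an example of its list. A 3' end was near-identical where 150 of its last 300 bases matched another transcript at 95% identity (GENCODE M21). Same-numbered replicates did not deviate together, so numbers were not used as pairs. Some values of the further lists are not reported here.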

Additional observations from a re-analysis of the deposited data

How the results depend on the processing

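The count of called ribosome biogenesis genes was 45, and 37 (DESeq2) to 46 over 17 alternatives, with 0 lower in each. It was 40 to 44 without 1 library, and those at least 1.5-fold higher, 30 of 51, were 27 to 32. DESeq2 called 1958 of all genes (3014 in limma) and 35 of the other pathway genes (69 in limma). The cause was not tested. Scaling by RLE, TMM or upper quartile moved the median of all genes from 0.03 to between -0.02 and -0.01 and called 44 of the 51 genes. The balance of all calls (1701 higher, 1313 lower) turned to 1451 and 1531 with RLE, 1432 and 1548 with TMM, 1465 and 1495 with upper quartile and 1443 and 1555 in edgeR. The other counts stayed within 1.5 times. With the replicate number as a block 46 of the 51 genes, 3061 of all genes and 69 other pathway genes were called, and 30 were at least 1.5-fold higher. Deviations from group means correlated at -0.03 to 0.02 between any young and any aged library over genes, so the numbers give no pairs. Of the values of single genes under alternatives 830 kept their call and direction, 31 lost and 5 gained a call, and Nob1 (-0.10) turned to 0.042 without Young replicate 1, with -0.19 without Young replicate 3 as its lowest. With 10 to 47 reads a library, the sizes for Rrp12 and Polr1b are limited by depth.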
